A study of Mus musculus with 6 samples.

Results

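Sense overlapping circular RNAs of mouse brain were those whose class in the deposited table read "sense overlapping". They numbered 2716 of the 18136 circular RNAs (circRNAs) listed (15.0%), came from 1854 named host genes, and held 15820 of the 190023 back-splice junction reads (8.33%). For 2 of them the table gave no gene name. The class is a label of the table: it stands beside the exonic class, which held 13133 circRNAs, and beside intronic, antisense and intergenic ones. The membership used no read count.

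RNA was taken from A53T mice, transgenic animals that model Parkinson disease and are named for a mutation of alpha-synuclein, and from wild type (WT) mice. Each group had 3 libraries of circRNA-enriched RNA. The labels give the tissue as brain, while the series text names the midbrain substantia nigra. The sources used here do not give age, sex, the promoter of the transgene or whether each library came from its own animal. The p-values therefore reflect the spread between these libraries alone, and that spread may be technical. Libraries held 25217 to 36390 junction reads in all and 2033 to 3075 in sense overlapping circRNAs, so 1 read stood for 27.5 to 39.7 CPM (reads of a circRNA relative to the library's total of junction reads) before TMM scaling. In bulk tissue, fewer cells of a type and less RNA per cell cannot be told apart.

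A circRNA forms when the spliceosome joins a donor site, at the end of an exon, back to an acceptor site upstream of it, at the start of the same or an earlier exon. The ring has no free ends and resists exonucleases, and circRNAs are abundant in brain, where many come from synaptic genes. An exonic circRNA begins and ends at annotated exon boundaries. A circRNA on the sense strand of a gene that does not have that form is commonly filed as sense overlapping, and such a circle can use an acceptor or donor site within an exon, within an intron or beyond the annotated gene. Introns start with GT and end with AG, so these letters just outside a circle mark a possible splice site.

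The smallest departures from an annotated exon were acceptors moved by a few bases. In 53 circRNAs both ends lay within 10 nt of those of an exonic circRNA without being identical. In 45 of these only the acceptor differed: it lay 3 nt downstream in 15, 4 nt downstream in 14, 5 to 9 nt downstream in 8 and 3 nt upstream in 8. In 6 only the donor differed. Of the downstream shifts, 36 could be read in a reference transcript, and in 36 of 36 the skipped bases ended in AG. At a shift of 3 nt this was 14 of 14, against 5.17% of 9365 exons that open an exonic circRNA with AG at those positions. At 4 nt it was 14 of 14 against 5.63%, and at 5 nt 4 of 4 against 5.31%. These are counts of circles, while the background counts each exon start once. Exons of Npas2, Elf2, Sorcs3, Eri3 and Lrrc7 served more than 1 of the circles, which are therefore not independent. Many circRNA callers keep only junctions with these signals. The sources used here do not name the caller, and its part in these counts was not tested.

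These exon starts show the pattern at coding exons. Each is 24 nt from the annotated acceptor, 5′ to 3′, from GENCODE M21 transcripts (GRCm38), with the bases that the sense overlapping circle leaves out in capitals.
Ehbp1 exon 15: CAGcaagatgaagagagacgtcgg
Kmt2a exon 19: CAGtgggatgttaccaaacgcagt
Elavl3 exon 2: CAGatactgggggccatggagtct
Sorcs3 exon 10: GTAGcaggtatcaaggggatattc
Mbtd1 exon 4: ACAGaacattcttcacaatccaaa
Gabra2 exon 4: ACAGtattactgaagtcttcacta
Ppp6r2 exon 7: AACAGaaggcttggtggactcctt
Syt1 exon 6: GCCCTTAAGgatgacgatgctgaa
In each line the capitals end in AG. The hosts include a histone methyltransferase (Kmt2a), a neuronal RNA-binding protein (Elavl3), a GABA-A receptor subunit (Gabra2) and the calcium sensor of vesicle release (Syt1).

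The shifted circles were mostly the rarer form. The 53 had 333 reads over the 6 libraries, against 3267 for their exonic partners, and 45 were less read than the partner, 3 more and 5 equally. The most read was from Hivep2, a zinc finger transcription factor gene. This circle (chr10:13879942-13942428, plus strand, build mm39 as in the table) began 3 nt upstream of its exonic partner and had 75 reads, against 628 for the partner. Npas2, a clock transcription factor gene, had 17 reads for an acceptor 3 nt downstream, against 139. Ehbp1 (chr11:22003432-22018503, minus strand), whose exon start is printed above, had 16 reads against 147. Minar1 had 13 reads for an acceptor 5 nt downstream, against 103.

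Most of the class did not lie this close to an exonic circle. Both ends were each used by some exonic circRNA in 11 circRNAs, 1 end was so used in 840 (6085 reads), and no end in 1865 (9322 reads). Circles with 1 shared end had a median genomic span of 25637 nt, and 43.6% of them were read in at least 2 libraries. Circles with no shared end had a median span of 3781 nt, and 24.2% were read in at least 2 libraries. Of the 840, 810 could be placed, by the distance of the other, free end from the exon at the shared end. The free end fell in an intron in 390 (48.1%) and inside an annotated exon in 303 (37.4%). It fell at an annotated exon boundary of the host, from any of its transcripts, in 78 (9.63%), and beyond the gene in 39 (4.81%). Free ends in introns lay at a median of 3657 nt from the nearest exon boundary of their own kind. Here and below, such distances run from a free donor to an annotated exon end, or from a free acceptor to an exon start. The other edge of a flanking exon may lie closer.

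**Figure D1:**
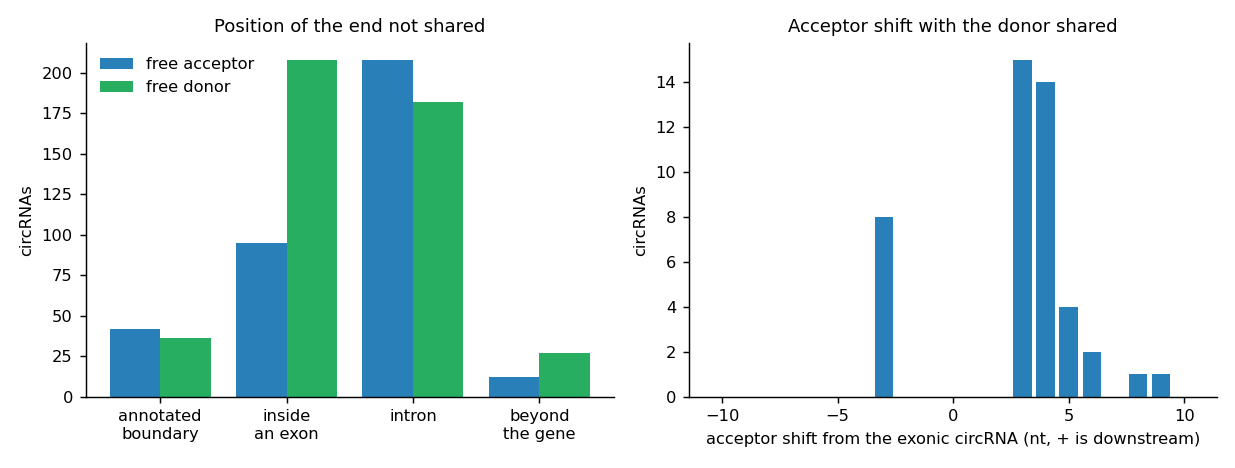
Left, number of circRNAs by the position of the end not shared with an exonic circRNA (810 circRNAs), for free acceptors and free donors. Right, number of circRNAs by acceptor shift in nt, among those that share the donor of an exonic circRNA and lie within 10 nt of its acceptor. Introns (390) and exon interiors (303) held most free ends, and shifts of 3 and 4 nt downstream were the most frequent.

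Free ends inside exons sat at splice-site letters. Of 208 free donors inside an exon, 208 were followed by GT, which makes up 5.17% of the dinucleotides of the 1866 host transcripts. Of 95 free acceptors inside an exon, 95 were preceded by AG, which makes up 7.91%. The last exon of the transcript held 181 of the 208 donors (87.0%), at a median of 181 nt from an exon boundary over the 208. The first exon held 11 of the 95 acceptors. First and last exons were taken from a single transcript per circle, and other transcripts of the host can run further. The annotated last exon has no donor and the annotated first exon no acceptor, so circles that use them are outside the exonic form. As with the shifted acceptors, the part of the caller in these shares was not tested. Free ends were counted per circle, so a site used by several circles counts more than once.

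The next lines give 30 nt around such free ends, 5′ to 3′ from the same reference transcripts, with the GT that follows the circle's donor or the AG that precedes its acceptor in capitals.
Asph free donor, exon 4 of 4: aactgcagatggtgttgatgGTacgtcaca
Scamp1 free donor, exon 9 of 9: ggcgcagaacgccttcaaggGTaaccagat
Peli1 free donor, exon 7 of 7: ccagatcccacttcctcatgGTacgcacac
Tasp1 free donor, exon 10 of 14: agaacccctactccacagctGTgagtacct
Rims2 free acceptor, exon 21 of 27: ctcgtttcAGcagcacaagctacatgtccg
Rims2 free acceptor, exon 21 of 27: gtttcagcAGcacaagctacatgtccgtcc
The donors of Asph, Scamp1, which encodes a secretory carrier membrane protein, and Peli1, a ubiquitin ligase gene, lie in the last exon of the transcript read. For Asph this was a short transcript: an exonic circle with the same acceptor runs past this donor, to position 9542225. The Tasp1 donor lies 13 nt from an exon boundary and was used by 4 circles with 43 reads in all. The acceptors of Rims2, a scaffold gene of the presynaptic active zone, are 3 nt apart (116 and 119 nt from the exon boundary) in a repeated CAG, and their circles had 19 and 12 reads.

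Back-splice junctions of 4 circles whose sequence could be read in exons on both sides are shown next, 20 nt of the donor side in lower case and 20 nt of the acceptor side in capitals.
Nus1: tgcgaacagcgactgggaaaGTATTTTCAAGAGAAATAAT
Asph: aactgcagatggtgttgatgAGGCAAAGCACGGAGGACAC
N4bp2l2: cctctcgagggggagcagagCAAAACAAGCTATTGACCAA
Rmdn2: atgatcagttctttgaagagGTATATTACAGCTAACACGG
The Nus1 circle (chr10:52305289-52312759, plus strand) had 93 reads and a donor in the last exon of the transcript read. Nus1 encodes the Nogo-B receptor, a subunit of the dolichol-making cis-prenyltransferase. The 1 exonic circle that shares an end with it had 2 reads. The Asph circle (chr4:9630773-9639347, minus strand) had 70 reads, and the exonic circle that shares its acceptor also had 2. The N4bp2l2 circle shown (chr5:150566634-150571013, minus strand, 51 reads) and the Rmdn2 circle (chr17:79957731-79989111, plus strand, 38 reads) had free ends at annotated exon boundaries. For these hosts the sense overlapping circle was the more read of the pair, with 43 reads for the exonic partner in N4bp2l2 and 28 in Rmdn2.

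Ends outside the exonic set recurred. Of 4259 ends not used by any exonic circRNA, 247 were used by at least 2 sense overlapping circles, which came to 514 circles with 5238 reads. One acceptor of Efcab5 served 8 circles (46 reads). One acceptor of Lncpint, a long non-coding RNA gene induced by p53, served 6 (103 reads), and one of Tulp4, a tubby-like protein gene, served 4 (142 reads). In 102 of the 1865 circles with no shared end (704 reads), the span equalled exactly 1 distance between an annotated exon start and an annotated exon end of the host. In 26 of these that start and end lay in the same transcript, and in the others in different transcripts of the gene. Only the span was matched and the ends were not placed, so a match does not show use of these boundaries. Among the 26 are circles of Epb41l1 and Rapgef6, each with both ends 4 nt from those of an exonic circle. How often spans match by chance was not tested. The most read of the 102 were the Tulp4 circle of 48088 nt, with 103 reads, and the Lncpint circle of 14674 nt, with 60.

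Spans ran from 150 to 99645 nt, with a median of 8734 nt and quartiles at 1199 and 28401 nt. The exonic median was 11680 nt. The predicted length in the table equalled the genomic span in 2716 of 2716 sense overlapping circRNAs, against 868 of 13133 exonic ones (6.61%). The table therefore gives no spliced length for the class, and what lies between the ends of a circle was not observed. Circles under 1000 nt numbered 638 (23.5% of the class), against 7.65% of exonic circRNAs. Of these short ones 12.5% were read in at least 2 libraries, against 61.9% of exonic circRNAs of that span. Between 1000 and 10000 nt the shares were 33.4% and 59.0%. Above 20000 nt, where 917 circles lay, they were 37.5% and 60.04%.

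**Figure D2:**
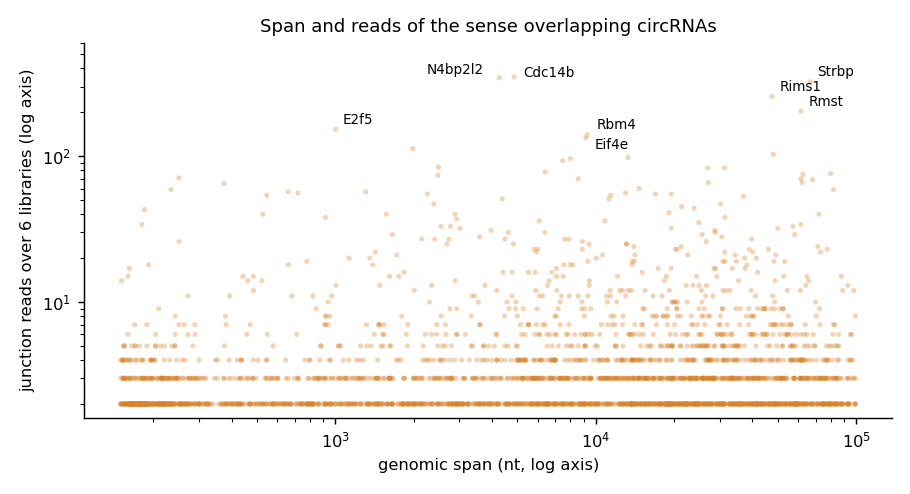
Genomic span in nt against junction reads summed over the 6 libraries for the 2716 sense overlapping circRNAs, both on log axes, 1 point per circRNA, with the 8 most read labelled. The labelled circles lie between 133 and 349 reads and span 1004 to 66613 nt, while most points lie at 2 or 3 reads.

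Most members were seen once. The median was 3 reads over the 6 libraries, and 1889 circRNAs (69.6%) were read in 1 library, against 40.7% of exonic ones. Only 121 (4.46%) were read in all 6 libraries, against 1444 of the 13133 exonic ones, and they held 39.1% of the reads of the class. A53T libraries alone held 1005 circRNAs, the most read of them with 12 reads. WT libraries alone held 1031, the most read with 10. Both groups held 680. The 1889 circRNAs read in 1 library are necessarily among the 1005 and 1031, so these counts do not mark circles as particular to a group. A circRNA with fewer than 2 reads in every library is outside the table.

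Within each library, sense overlapping circRNAs were less read and less often read again than exonic ones. Mean reads per detected circRNA were 3.38 ± 0.19 for the sense overlapping class and 4.89 ± 0.28 for the exonic class (SD, n = 6 libraries), lower in 6 of 6 libraries. The share read again in another library was 59.6 ± 3.0% and 84.1 ± 1.3%, lower in 6 of 6. This share draws on the other libraries, so its 6 values are not independent, as the test below takes them to be. The 10 most read circRNAs took 13.8 ± 0.96% of sense overlapping reads and 9.51 ± 1.32% of exonic reads, higher in 6 of 6 libraries. A fixed 10 circles tend to hold more of a class with fewer circRNAs. The test of this share therefore cannot show a difference beyond class size. Each of these differences had p = 0.03125 in a two-sided exact sign-flip permutation test over libraries, the smallest p that 6 pairs allow (0.0417 after Benjamini-Hochberg adjustment over 4 measures). The median span of detected circRNAs was 10577 ± 1059 nt and 11509 ± 250 nt, lower in 5 of 6 libraries, and did not pass (exact permutation p = 0.09375, adjusted 0.09375). Among circRNAs with at least 2 reads in the library that difference was -1863 nt and had the smallest p possible.

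**Figure D3:**
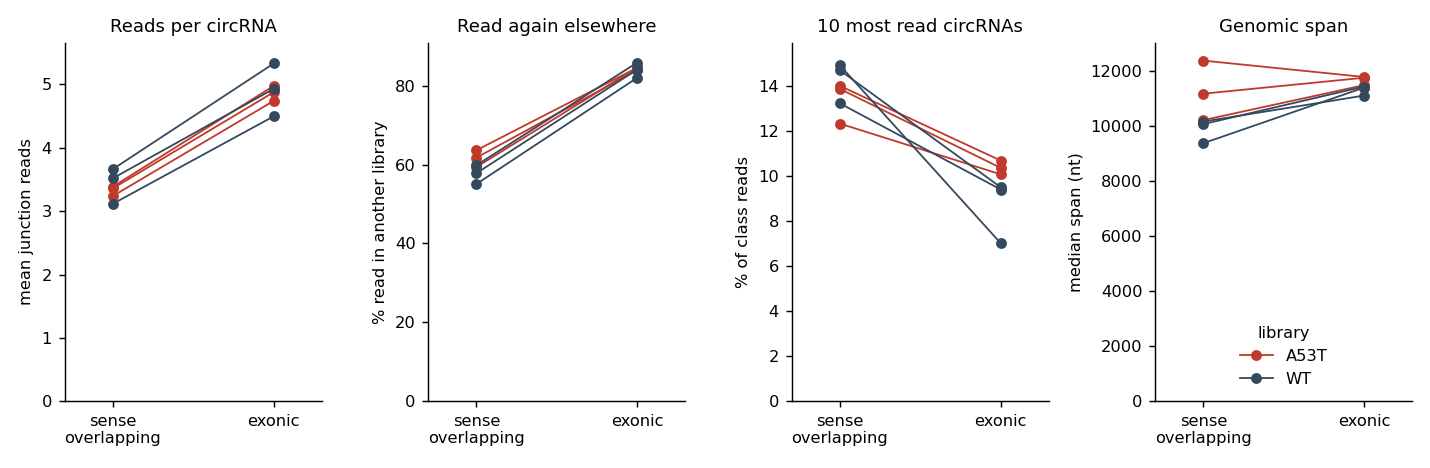
Per library, mean junction reads per detected circRNA, percent of circRNAs read in another library, percent of class reads in the 10 most read circRNAs, and median genomic span in nt; a line joins the sense overlapping and exonic values of 1 library (3 A53T, 3 WT). The first 2 measures are lower and the third is higher for the sense overlapping class in 6 of 6 libraries, while the median span is lower in 5 of 6.

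The most read circles formed a short list. The 8 most read had 133 to 349 reads each and together 1904, or 12.04% of the class. They came from Cdc14b, a dual-specificity phosphatase gene, N4bp2l2, Strbp, which encodes a double-stranded RNA-binding protein, Rims1, an active zone scaffold gene, Rmst, a long non-coding RNA gene of neural development, E2f5, a transcription factor gene, Rbm4, a splicing regulator gene, and Eif4e, the cap-binding translation factor gene.

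The Cdc14b circle (chr13:64391448-64396313, minus strand) shared its donor, the end of exon 4 of 14, with 1 exonic circle. Its acceptor lay 143 nt from an exon boundary, inside a first exon of another transcript. It had 56, 55 and 61 reads in A53T libraries and 62, 79 and 36 in WT libraries, so the groups overlapped. The exonic circle with the same donor had 28 reads in all, 3, 2 and 6 in A53T and 5, 10 and 2 in WT. The N4bp2l2 circle (chr5:150527642-150531905, minus strand) shared no end with an exonic circle. It had 53, 45 and 88 reads in A53T libraries and 70, 60 and 29 in WT libraries, again overlapping. The 1 exonic circRNA of N4bp2l2 had 3, 4 and 3 reads in A53T and 10, 9 and 14 in WT. These did not overlap (log2 fold change -1.75, standard error 0.72), but the edgeR quasi-likelihood test gave a Benjamini-Hochberg adjusted p of 0.857.

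The Strbp circle (chr2:37470685-37537297, minus strand) was the most read of the 11 whose ends are both used by exonic circles. It had 53, 47 and 64 reads in A53T and 42, 83 and 34 in WT. The most read exonic circle sharing one of its ends had 37, 32 and 67 in A53T and 38, 60 and 36 in WT. Rmst gave 30, 38 and 21 reads in A53T and 41, 40 and 34 in WT for its circle of 61521 nt, with overlapping groups. E2f5 gave 18, 24 and 31 in A53T and 26, 34 and 20 in WT for a circle of 1004 nt. Rbm4 gave 22, 27 and 24 in A53T and 23, 35 and 9 in WT, and Eif4e 16, 27 and 10 in A53T and 39, 24 and 17 in WT. In each of these hosts the A53T and WT libraries overlapped.

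The part of the reads that the class took differed between groups by less than the spread between libraries. Sense overlapping circRNAs held 8.30 ± 0.49% of junction reads in A53T and 8.32 ± 0.22% in WT (SD, n = 3 each; two-sided exact permutation p = 0.9, where 0.1 is the smallest possible). Circles with at least 2 reads numbered 638 ± 59 per A53T library and 635 ± 94 per WT library (exact permutation p = 1). In the 1121 hosts that had both classes, sense overlapping circles held 10.6 ± 0.56% of the reads of both classes in A53T and 10.8 ± 0.26% in WT (exact permutation p = 0.8). All 3 were 1 after Benjamini-Hochberg adjustment. Leaving out 1 library at a time reversed the sign of the first difference in 4 cases and of the second in 2, and of the third without A53T replicate 1.

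Of 16 per-library measures of both classes and their differences compared between A53T and WT, 5 did not overlap between groups. Each had a two-sided exact permutation p of 0.1 (n = 3 each), the smallest possible, and 0.32 after Benjamini-Hochberg adjustment over the 16. These comparisons, other than the 3 above, were added after the values had been seen. The median span of detected sense overlapping circRNAs was 11190, 10230 and 12393 nt in A53T libraries and 9390, 10083 and 10177 nt in WT libraries, each A53T library above each WT library. The exonic medians lay the same way, at 11690 ± 164 nt in A53T and 11329 ± 180 nt in WT. The difference between the classes in this contrast was 1027 nt (exact permutation p = 0.2, n = 3 each). The share read again in another library, sense overlapping minus exonic, was -20.9, -25.2 and -22.2 percentage points in A53T libraries and -26.3, -26.9 and -26.0 in WT libraries. The share of the 10 most read circRNAs, taken the same way, was 3.50, 2.25 and 3.32 points in A53T and 7.90, 5.19 and 3.82 in WT. That share within the exonic class alone was 10.4 ± 0.31% in A53T and 8.65 ± 1.41% in WT, again without overlap. Within the sense overlapping class alone it was 13.4 ± 0.93% in A53T and 14.3 ± 0.92% in WT, which overlap. The share read again in that class was 61.6 ± 2.1% in A53T and 57.6 ± 2.4% in WT, which also overlap. Values of the share read again are not independent between libraries, as said above.

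Single circles were compared between A53T and WT brain with the edgeR quasi-likelihood test on all 1214 circRNAs with at least 5 reads in at least 3 libraries. Of the 2716 sense overlapping circRNAs 86 passed this filter, from 71 hosts and with 35.9% of the reads of the class. No circRNA passed a Benjamini-Hochberg adjusted p of 0.05 (0 of 86, and 0% of all 1214), and the smallest adjusted p in the class was 0.469. DESeq2 and limma-voom also called 0. An unadjusted p under 0.05 was found in 6 of 86 (6.98%), 2 higher and 4 lower in A53T, against 4.7% of all tested (2.31% higher and 2.39% lower). DESeq2 and limma-voom gave 6 each, and the count was 3 without WT replicate 1 and 3 without WT replicate 3. The split was 4 higher and 2 lower without WT replicate 2, and 1 higher and 5 lower without A53T replicate 1. The groups did not overlap in 7 of 86 (8.14%), against 11.3% of all tested; 3 stood above WT (background 5.19%) and 4 below (background 6.1%). The median log2 fold change was 0.11 in the class and -0.01 over all tested, and 74 of 86 lay within 1 of 0. A median standard error of 0.67 on the log2 scale limits what 3 libraries per group can show.

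**Figure D4:**
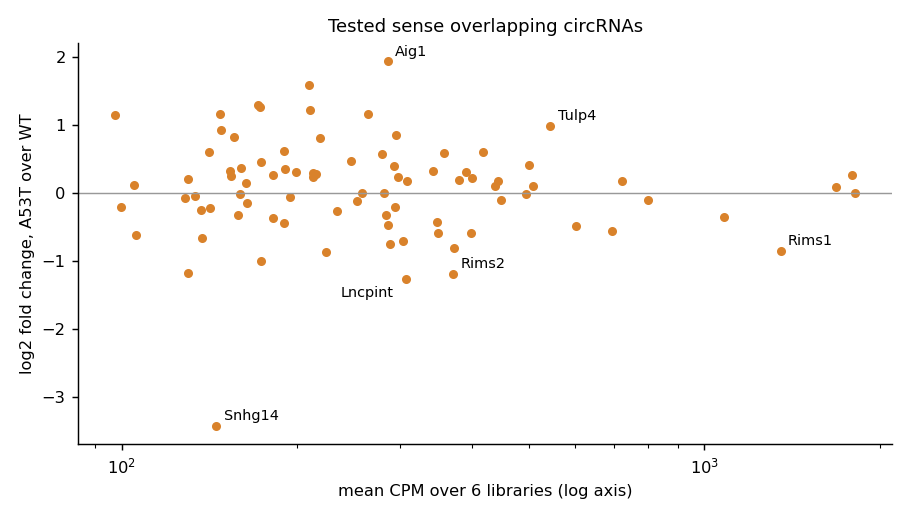
Log2 fold change, A53T over WT, against mean CPM over the 6 libraries (log axis) for the 86 tested sense overlapping circRNAs, 1 point each, with those of unadjusted edgeR p under 0.05 named. Values run from -3.42 to 1.94, most lie within 1 of 0, and no point passes the adjusted threshold.

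The smallest p of the class belonged to a circle of Snhg14, a long non-coding host of small nucleolar RNAs that runs antisense to Ube3a in the imprinted Prader-Willi and Angelman region. This circle of 7607 nt (chr7:59093520-59101126, minus strand) shared its acceptor with an exonic circle and had a donor in an intron, 1931 nt from an exon boundary. It had 1, 1 and 0 reads in A53T libraries and 8, 8 and 9 in WT libraries, each A53T library below each WT library. With 2 reads in A53T and 25 in WT, WT was 12.3-fold higher over scaled library sizes (95% exact conditional interval 3.08 to 107, counting error only). The edgeR adjusted p was 0.469. Over the 13 sense overlapping circles of Snhg14 the sums were 19, 34 and 17 in A53T and 27, 59 and 25 in WT, which overlap (adjusted p = 0.9755). No source used here says if the strand was used in counting, and without it reads of an antisense partner cannot be told apart.

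Circles of both Rims genes, which tether vesicles and calcium channels at the active zone, were lower in A53T without passing the test. The Rims1 circle of 47656 nt (chr1:22416517-22464172, minus strand) had 25, 41 and 25 reads in A53T and 73, 48 and 45 in WT, with no overlap. That was 963 ± 276 CPM in A53T and 1743 ± 396 CPM in WT (SD, n = 3 each). The log2 fold change was -0.85 with a standard error of 0.28 (edgeR adjusted p = 0.502). Its donor closed exon 27 of 32 and its acceptor lay in an intron, 3615 nt from an exon boundary. The most read exonic circle with that donor had 99, 97 and 62 reads in A53T and 73, 103 and 117 in WT, which overlap. The Rims2 circle of 61446 nt (chr15:39418461-39479906, plus strand) had 10, 4 and 7 reads in A53T and 18, 17 and 14 in WT, with no overlap (log2 fold change -1.19, edgeR adjusted p = 0.845). Its donor closed exon 22 of 27, and its acceptor lay in an intron, 11878 nt from an exon start. A second Rims2 circle of 61443 nt had the same donor and an acceptor 3 nt further on, with 2, 4 and 5 reads in A53T and 5, 14 and 4 in WT, which overlap.

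The most read of 5 exonic circles with the donor of both Rims2 circles had 188, 148 and 159 reads in A53T and 188, 227 and 91 in WT. Summed over hosts, sense overlapping circles of Rims1 had 30, 46 and 28 reads in A53T and 77, 59 and 53 in WT (log2 fold change -0.88, edgeR adjusted p = 0.552). Those of Rims2 had 20, 19 and 21 in A53T and 32, 54 and 30 in WT (log2 fold change -0.95, edgeR adjusted p = 0.712). Neither pair of groups overlapped. Exonic circles of the same hosts had log2 fold changes of -0.13 in Rims1 (17 circles, 1433 reads) and 0.06 in Rims2 (33 circles, 1673 reads). The difference between the classes within these hosts was not tested.

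The other circles with the smallest p below WT were varied. The Lncpint circle of 14674 nt had 7, 5 and 5 reads in A53T and 14, 22 and 7 in WT. The A53T libraries stood at 182 ± 46 CPM, each below the WT libraries at 433 ± 175 CPM, once library sizes were scaled (log2 fold change -1.26, edgeR adjusted p = 0.845). The Asph circle, whose junction is printed above, had 13, 5 and 7 reads in A53T and 17, 15 and 13 in WT, overlapping at 13. The Eif4e circle given above was also among them.

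Above WT, the smallest p was for Aig1, a gene of a fatty acid ester hydrolase. Its circle of 546 nt (chr10:13677148-13677693, minus strand) had 13, 7 and 23 reads in A53T and 0, 7 and 4 in WT, without overlap once scaled. This was 455 ± 247 CPM in A53T and 117 ± 104 CPM in WT (SD, n = 3 each). The log2 fold change was 1.94 with a standard error of 0.69 (edgeR adjusted p = 0.578). The Tulp4 circle of 48088 nt had 29, 26 and 13 reads in A53T and 11, 16 and 8 in WT, which overlap (log2 fold change 0.99, adjusted p = 0.845). The next 6 came from Elfn2, a synaptic adhesion gene, Faxc, Tmem178b, Soga3, Lin28b, an inhibitor of let-7 microRNA maturation, and Wnk3, a kinase gene of chloride transport. Their log2 fold changes were 0.85 to 1.59, with adjusted p from 0.991 to 0.993. Tmem178b (8, 10 and 10 reads in A53T, 3, 6 and 3 in WT) and Soga3 (5, 11 and 7 in A53T, 3, 2 and 4 in WT) did not overlap between groups.

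**Figure D5:**
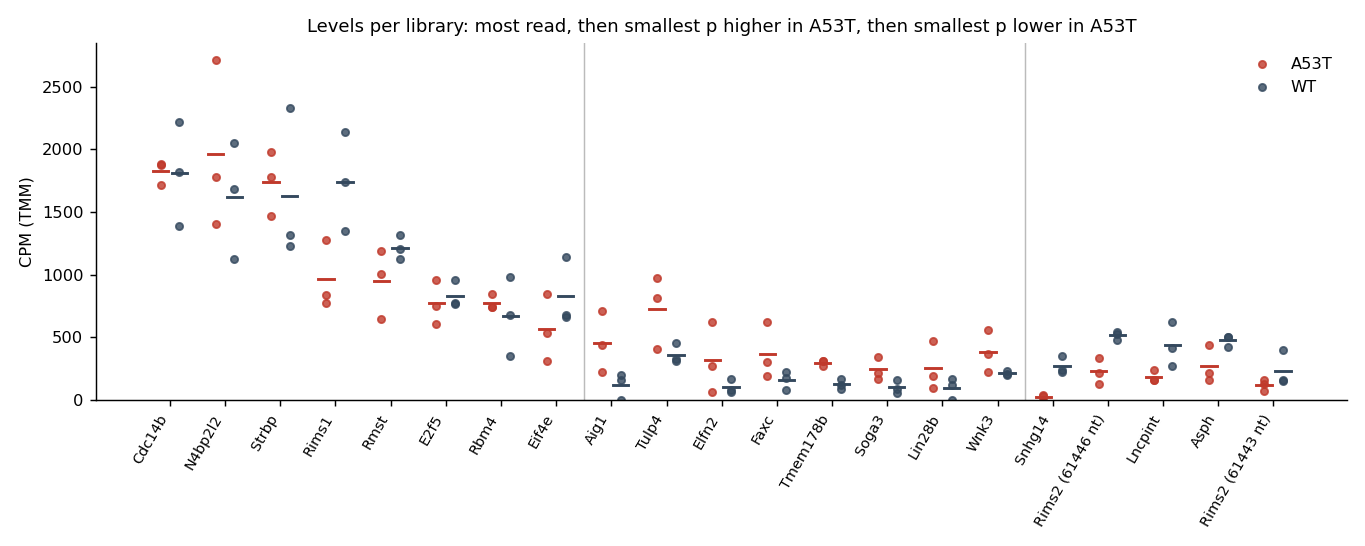
Level in CPM after TMM scaling for the 8 most read circles (left block), the tested circles with the smallest p higher in A53T (middle) and lower in A53T (right); points are libraries, A53T left of WT, and bars are means of 3. Rims1 and Eif4e, which are also among the lower ones, are drawn in the left block only. Snhg14 lies near 0 in A53T, and none of the differences passed the adjusted threshold.

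None of the longest and shortest tested circles passed the test. The longest were from Hivep2 (81882 nt), Ssbp2 (79871 nt) and Zeb1 (72040 nt), with log2 fold changes of -0.70, -0.59 and 0.29. These sizes moved when single libraries were omitted: Hivep2 stood at -0.056 without WT replicate 1, Ssbp2 at -1.39 without A53T replicate 3 and Zeb1 at 0.044 without WT replicate 1. The Hivep2 circle had 4, 12 and 6 reads in A53T and 22, 9 and 6 in WT. Hivep2 and Ssbp2 shared their acceptor with an exonic circle and had a free donor in an intron. The shortest were from Ddn (181 nt), which encodes the dendritic protein dendrin, Malat1 (185 nt) and Gm10800 (234 nt), with log2 fold changes of -0.37, 0.81 and 0.18. Ddn had 1, 2 and 12 reads in A53T and 6, 5 and 8 in WT, so its spread within A53T exceeded the difference. The Malat1 circle had 6, 13 and 8 reads in A53T and 1, 14 and 1 in WT, and its log2 fold change was 2.96 without WT replicate 2 and 0.33 without WT replicate 1. Counts of Gm10800 are uncertain, since this predicted gene has near-identical copies.

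Hosts differed in how many circles they gave. A single sense overlapping circle came from 1388 hosts, and 38 hosts gave 5 or more. Exonic circRNAs came from 1121 of the 1854 hosts (60.5%), which is 26.2% of the 4285 exonic hosts. Protein-coding genes were 1673 of the hosts. Long non-coding types were 84, with 204 circles and 9.29% of the reads. Malat1, an abundant nuclear long non-coding RNA, gave 63 circles of 151 to 2826 nt (median 216 nt) and no exonic one. Next were Snhg14 and Rims2 with 13 each, Lncpint and the long non-coding A230006K03Rik with 11 each, and then Eif4e3, Lrrc7 and Map1b with 9 each. Lncpint and A230006K03Rik gave no exonic circle either.

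Summed per host, sense overlapping reads were tested in 87 hosts, among 1353 sums of host and class. None passed the edgeR test (0 of 87, and 0% of 1353), and the smallest adjusted p was 0.552. DESeq2 and limma-voom also called 0. An unadjusted p under 0.05 was found in 5 (5.75%), 3 higher and 2 lower in A53T, against 5.03% (2.44% and 2.59%). DESeq2 gave 5 and limma-voom 7. The split was 6 higher and 1 lower without WT replicate 2, and 1 higher and 4 lower without WT replicate 1. The groups did not overlap in 9 (10.3%), against 10.8%; 6 stood above WT (background 5.25%) and 3 below (background 5.54%). The median log2 fold change was 0.14, against -0.02 over all sums.

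Malat1 circles summed to 41, 54 and 51 reads in A53T and 24, 43 and 44 in WT, which overlap (log2 fold change 0.35, edgeR adjusted p = 0.9755). A230006K03Rik summed to 32, 30 and 28 in A53T and 15, 24 and 10 in WT, without overlap (log2 fold change 0.89, adjusted p = 0.857). Lncpint summed to 29, 32 and 21 in A53T and 42, 39 and 21 in WT, and Eif4e3 to 11, 14 and 14 in A53T and 19, 11 and 8 in WT, both overlapping. The smallest p among sums higher in A53T were those of Aig1, A230006K03Rik, Tulp4 (35, 38 and 22 in A53T, 13, 20 and 19 in WT) and Faxc (16, 20 and 31 in A53T, 11, 21 and 6 in WT). Among sums lower in A53T they were those of Rims1, Rims2, Snhg14 and Asph.

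Of 369 genes in 18 lists of neuronal, disease and cell type genes, 141 hosted a sense overlapping circle and 13 could be tested. No host of the lists was called. Unadjusted p was under 0.05 in 3 of the 13, namely Rims1, Rims2 and A230006K03Rik, beside 5 of the 87 hosts tested and 5.03% of all 1353 sums. The lists were chosen with earlier results of these data known, so nothing is read from this count or from the list sums below. Genes of the active zone and vesicle release hosted 47 circles in 18 of 26 genes, with 66, 83 and 63 reads in A53T and 125, 137 and 88 in WT. Each A53T sum was below each WT sum, but Rims1 and Rims2, whose lower values are given above, carried most of these reads. The other genes of the list were not compared apart from them. The third tested gene of that list, Rimbp2, had 5, 1 and 7 reads in A53T and 1, 5 and 0 in WT. The median of the 3 tested hosts, -0.88 (log2), is the value of Rims1 itself and adds nothing to it.

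The list of chromatin and transcription regulators had circles in 18 of 31 genes. Of its tested hosts, Foxp1 and Rere had log2 fold changes of -0.36 and -0.12, and that of Rere turned sign under limma-voom and that of Foxp1 without WT replicate 2. The list of long non-coding hosts had 91 circles in 7 of 18 genes, with 4 tested and 3 of them above 0. Lncpint and Rmst, long non-coding hosts named above, were not in this list. Their sums had log2 fold changes of -0.30 and -0.22, so the count of 3 depends on the choice of list genes. Single tested hosts were Lrrc7 among 13 of 24 postsynaptic scaffold genes (-0.60, standard error 0.76) and Nlgn1 among 16 of 28 adhesion and guidance genes (-0.44, standard error 0.43). Among 8 of 26 ubiquitin genes it was Ankib1 (-1.13, standard error 0.95), with 6, 1 and 2 reads in A53T and 3, 5 and 11 in WT. The groups overlapped in each of these hosts. No host could be tested among glutamate and GABA receptors (14 of 25 genes with circles), ion channels (15 of 28), autophagy and lysosome genes (9 of 30) or RNA-binding genes (10 of 31). Of 18 Parkinson disease genes 1, Mapt, hosted a circle, with 5 reads in 1 A53T library.

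Circles of cell type markers were too few to check the tissue. Pan-neuronal markers hosted them in 6 of 16 genes, with 2, 7 and 0 reads in A53T and 2, 7 and 5 in WT. Of 20 dopaminergic markers 1, Erbb4, did, with 4 reads in A53T and 2 in WT, and none came from Th, Slc6a3, Slc18a2 or Ddc. Astrocyte markers hosted circles in 4 of 13 genes, with 3, 5 and 11 reads in A53T and 4, 2 and 0 in WT. Oligodendrocyte markers did in 3 of 15, their precursors' in 1 of 8, endothelial and mural markers in 1 of 10, and microglial markers in 0 of 11. The part of cell makeup in the values above was not tested.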

How the data were processed

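RNA was enriched for circRNA, made into stranded libraries and read as 150-base pairs, per the labels' protocols. Build mm39 and the tools STAR, cutadapt 1.9.3 and edgeR 3.16.5 are listed in the submitters' processing notes; caller, annotation and use of strand in counting are not given in any source used here. The deposited counts are back-splice junction reads, per the file headers. The deposited log2 CPM values were made by the authors with edgeR; recomputed with a prior count of 2 they differed by at most 0.122, and they served for this check only.

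edgeR 4.0.16 in R 4.3.3 (quasi-likelihood, robust, TMM; library size the sum of all junction reads; at least 5 reads in at least 3 libraries; threshold 0.05) was fitted on circRNAs of every class and on sums per host and class. circRNAs with no gene name (0.690 to 0.828% of reads) stayed out of the sums. The script was tested on simulated counts. Alternatives were DESeq2 1.42.0, limma 3.58.1 (voom), other scalings and filters, a replicate block and leaving out each library. Exact permutation tests used scipy 1.17.1 or full enumeration of sign flips. Intervals are 95% and cover counting error only; without molecular identifiers, PCR reads are not independent.

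Coordinates are 1-based mm39 and were not converted. Shared ends are identical positions. Exonic circles were matched to runs of GENCODE M21 exons (GRCm38) by span and predicted length (12794 of 13133). Free ends were placed by distance, and sequences were read from those transcripts.

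Members and lists were chosen with earlier results of these data known. Named were the 8 circles in each direction with the smallest p, the 8 most read, the 3 longest and 3 shortest tested, the 6 hosts with most circles, 4 host sums in each direction, up to 3 tested hosts per list and the 4 most read circles within 10 nt of an exonic one. Genes named beside printed sequences, partner circles, recurrent ends and markers were chosen after their values were seen. A result that the rule names is not reported here. Figures used matplotlib 3.10.9.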

Additional observations from a re-analysis of the deposited data

How the results depend on the processing

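No sense overlapping circRNA and no host sum was called under any scaling, filter, tool, replicate block or left-out library. Unadjusted p under 0.05 held for 3 of 34 circRNAs at 10 reads or more in 3 libraries (34 of 519 in all classes) and for 16 of 2716 with no further filter (214 of 18136). For host sums the latter gave 19 of 1854 (136 of 7529). No pairing by replicate number was seen: same-numbered deviations from the group means correlated at -0.03, 0.01 and 0.02. With few reads per circRNA, such low correlations cannot show that a pairing is absent. With a replicate block 0 circRNAs and 0 host sums were called, 5 of each were under an unadjusted 0.05, and the share of reads had an exact permutation p of 0.75.

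The share of reads (A53T minus WT, percentage points) ran from -0.31 to 0.14 over left-out libraries, was 0.049 among circRNAs with at least 5 reads in all and 0.13 without the most abundant circRNA of the table. Circles detected with at least 2 reads differed by -48.7 to 41.3, and the share within hosts of both classes by -0.45 to 0.11 points. Between classes, leaving out libraries gave -1.54 to -1.48 mean reads, -25.3 to -24.1 points read again and 3.62 to 4.75 points for the 10 most read; 5 pairs cannot pass the threshold. The median span difference was -1863 nt with at least 2 reads and then passed.

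Log2 fold changes turned sign over left-out libraries for Cdc14b (-0.15 to 0.19; -0.027 with totals only), N4bp2l2 (-0.029 to 0.48), Strbp (-0.075 to 0.46), E2f5 (-0.28 to 0.054), Rbm4 (-0.10 to 0.57), Ddn (-1.99 to 0.10), Gm10800 (-0.15 to 0.99) and the host sums of Eif4e3 (-0.12 to 0.40), Foxp1 (-0.67 to 0.0013) and Rere (-0.58 to 0.997; 0.44 under limma-voom, 0.038 with a replicate block). The cause was not tested. Depth limits the class: 2630 of its 2716 circRNAs fell below the filter.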
